A study of Mus musculus with 23 samples.

Results

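Meg3, Rian, Mirg, Dlk1, H19, Igf2 and Peg3 are imprinted genes, which are transcribed mainly from the copy of a single parent. They were listed by symbol, because Meg3 and Rian had been among the transcripts most restricted to the tumour microenvironment (TME) in these same libraries, and all 7 were found among the 48397 gene symbols of the count table. The contrast of cancer cells with TME cells chose them, so their values in that contrast are given as a description with no test. The exercise effects were not used in that choice and were tested.

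RNA was measured in cells sorted from Met1-iRFP breast tumours of FVB mice. Met-1 cells come from a mammary tumour of a mouse carrying the polyoma middle T antigen, and iRFP, which fluoresces in the near infrared, was used to tell them from cells of the host. The iRFP+ sort is labelled cancer cells and the iRFP- sort is labelled TME cells. The 4 groups were cancer cells of sedentary mice (8 libraries), cancer cells of exercised mice (7), TME cells of sedentary mice (4) and TME cells of exercised mice (4). Every group shares the strain, the tumour line and its fluorescent marker. The sources used here do not give the age and sex of the mice, the kind and length of the exercise or whether each library is a separate mouse.

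Total counts were 15924340 to 25563245 in sedentary and 20073700 to 25526059 in exercised cancer libraries, and 16307545 to 35958441 in sedentary and 22682216 to 37388479 in exercised TME libraries. Sedentary TME libraries 4 and 6 stood apart in the share of counts from mitochondrial transcripts, at 42.2% and 14.5%. The range was 2.61% to 8.63% over the remaining TME libraries and 1.86% to 3.90% over the cancer libraries. Exercised TME libraries 8 and 9 stood apart in leukocyte RNA, with summed pan-leukocyte markers of 1547 and 1656 CPM (counts scaled to library size) against 281 to 509 CPM in the other 6. The markers went only partly with the labels. In cancer libraries the summed macrophage markers stood at 5.84% of their TME level, mast cell markers at 3.23% and pan-leukocyte markers at 9.61%. The summed luminal epithelial and tumour markers stood at 126% of their TME level, and the 5 genes of at least 1 CPM in TME libraries at 14.3% to 128%. By mean log2 CPM of the list, TME libraries (2.81 sedentary, 2.69 exercised) stood above cancer libraries (2.58 and 2.33). These markers were thus not confined to the cancer sort, and the cells that gave this RNA to the TME sort were not tested. CPM values are scaled by the TMM method and given as mean ± SD over libraries. In bulk RNA of a sort, fewer cells of a type and less RNA per cell cannot be told apart.

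Meg3, Rian and Mirg are long non-coding RNAs transcribed from the maternal chromosome in the Dlk1-Dio3 imprinted domain. Dlk1, a transmembrane protein related to Notch ligands, is transcribed from the paternal chromosome in the same domain. Rian and Mirg are hosts of small nucleolar RNAs and microRNAs. H19, a maternally expressed non-coding RNA, and Igf2, a paternally expressed insulin-like growth factor, form a pair that shares enhancers. Peg3, a paternally expressed zinc finger protein, lies in a domain of its own on the same chromosome as H19. These genes are known for high expression in the embryo and placenta and for lower expression in adult mesenchymal, muscle and endothelial cells.

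In GRCm38 (mm10) with the GENCODE M21 annotation, Dlk1 lies on chromosome 12 from 109452823 to 109463336, Meg3 from 109541001 to 109571726, Rian from 109603940 to 109661716 and Mirg from 109729764 to 109749460, all on the plus strand. H19 lies on the minus strand of chromosome 7 from 142575529 to 142578143, Igf2 from 142650766 to 142666816 and Peg3 from 6703892 to 6730431. Rian and Mirg hold annotated small RNA genes on their own strand, and counts there were few, with at most 13 over all 23 libraries for any gene overlapping Rian. Igf2 overlaps the antisense gene Igf2os, which held 22 counts, and reads from either strand cannot be told apart here.

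Promoter windows from RefSeq on GRCm38.p6, running from 250 bases before to 50 bases after a start, were found for 6 of the 7 genes, and none for H19. The first of 2 windows of Meg3 (chr12:109540746-109541045, plus strand) and the windows of Rian (chr12:109603695-109603994, plus strand) and Peg3 (chr7:6730370-6730669, minus strand) are shown because these genes were high in the TME sort. Each is written 5′ to 3′ along the gene. Capitals mark TGACGTCA, the palindromic cAMP response element, and TATAAA, the TATA box, searched on both strands.
Meg3: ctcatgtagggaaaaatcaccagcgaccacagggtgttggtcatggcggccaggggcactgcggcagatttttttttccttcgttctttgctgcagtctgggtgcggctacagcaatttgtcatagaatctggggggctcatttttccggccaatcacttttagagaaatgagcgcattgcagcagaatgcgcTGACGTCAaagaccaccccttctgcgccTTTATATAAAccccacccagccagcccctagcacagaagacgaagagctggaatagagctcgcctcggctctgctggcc
Rian: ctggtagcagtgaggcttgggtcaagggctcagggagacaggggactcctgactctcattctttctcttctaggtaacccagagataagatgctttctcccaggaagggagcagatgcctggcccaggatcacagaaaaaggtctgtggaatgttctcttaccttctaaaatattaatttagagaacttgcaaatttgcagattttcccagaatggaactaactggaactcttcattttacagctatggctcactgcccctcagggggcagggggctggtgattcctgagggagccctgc
Peg3: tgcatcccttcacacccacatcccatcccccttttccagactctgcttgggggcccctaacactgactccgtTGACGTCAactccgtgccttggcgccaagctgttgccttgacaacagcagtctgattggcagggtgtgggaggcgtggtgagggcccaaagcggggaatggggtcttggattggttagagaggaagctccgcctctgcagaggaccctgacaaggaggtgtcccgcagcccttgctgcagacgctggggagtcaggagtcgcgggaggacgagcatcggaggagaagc
The first window of Meg3 held TGACGTCA 57 bases before the start and TATAAA 25 bases before it, which overlaps a match on the other strand 29 bases before. The window of Peg3 held TGACGTCA 178 bases before the start, and that of Rian held neither. Of 10 windows of the 6 genes, 2 held TGACGTCA and 1 held TATAAA, while TGACGTCA occurred in 1.79% and TATAAA in 13.62% of 32817 promoters of the same length. The first Meg3 window and the Peg3 window each held 13 CpG sites, the Rian window held 0, and the second Meg3 window (chr12:109545148-109545447) held 1 and neither motif, against a median of 7 over all promoters. Other motifs were searched as well. The GC box GGGCGG matched in Igf2 windows alone, and the YY1 core AAGATGGC and the E-box CACGTG had no match. The ZFP57 hexamer TGCCGC matched in the first Meg3 window, on the other strand 190 bases before the start, and is left in lower case. It also matched in an Igf2 window and occurred in 11.61% of promoters. A match is a run of letters and not evidence that a factor binds there.

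The hosts also carry microRNAs, of which Meg3 holds 3 mature sequences, Rian 6, Mirg 26, H19 2 and Igf2 2 in RefSeq. A mature sequence of Meg3, of Rian and of H19 is shown as an example of the microRNAs that these 3 hosts carry. Capitals mark the seed, bases 2 to 8.
miR-770-5p in Meg3: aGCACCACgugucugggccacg
miR-370-3p in Rian: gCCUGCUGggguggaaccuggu
miR-675-5p in H19: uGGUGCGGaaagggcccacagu
The 3 seeds differ from one another, and no other mature sequence of the 5 hosts shares any of them. Sequencing of polyA RNA does not measure mature microRNAs, and the counts below are of the host transcripts. Around Meg3, 68 microRNA genes held 21 counts and 23 small nucleolar RNA genes held 11 counts over all libraries together.

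Meg3, whose RNA is often silenced in tumour cells, was detected in all 23 libraries. In sedentary TME libraries 4, 6, 9 and 10 it stood at 19.2, 17.3, 14.5 and 31.7 CPM, and in exercised TME libraries 7, 8, 9 and 10 at 26.7, 5.72, 13.5 and 12.2 CPM. In sedentary cancer libraries the lowest, median and highest values were 0.182, 0.385 and 0.894 CPM, and in exercised cancer libraries 0.0896, 0.413 and 0.982 CPM. Every TME library was above every cancer library, and within each sort the treatments overlapped. The lowest TME library was exercised library 8 and the highest was sedentary library 10. The mean was 17.6 ± 8.29 CPM (n = 8) in TME and 0.460 ± 0.303 CPM (n = 15) in cancer libraries, a difference of -5.24 ± 0.32 log2 (cancer minus TME, ± the standard error of the fit). That placed Meg3 at rank 46 from the lowest of 17503 genes, and at rank 8 of the 12292 genes whose mean log2 CPM reached 1.

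Rian, the next non-coding RNA downstream, followed the same order of sorts. It stood at 10.5, 6.58, 12.1 and 16.9 CPM in sedentary TME libraries 4, 6, 9 and 10, and at 11.4, 6.29, 11.3 and 6.38 CPM in exercised TME libraries 7, 8, 9 and 10. In cancer libraries the lowest, median and highest values were 0.369, 0.675 and 0.947 CPM in the sedentary and 0.207, 0.403 and 1.05 CPM in the exercised group. No TME library overlapped the cancer libraries, and the treatments overlapped within each sort. Cancer minus TME was -4.23 ± 0.23 log2, rank 277 of 17503. Over all libraries of a sort, 3616 Meg3 counts stood beside 2215 Rian counts in TME cells, a count ratio of 1.63 (95% exact interval 1.55 to 1.72, counting error only). In cancer cells it was 0.831 (0.665 to 1.04) from 152 and 183 counts. Per library the ratio ran from 0.910 to 2.62 in TME and from 0.222 to 4.75 in cancer cells. Exercise against sedentary gave no difference of the ratio beyond the spread in TME (two-sided exact permutation p = 0.457) or cancer cells (p = 0.881).

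Mirg and Dlk1 were near the limit of detection. Mirg held 18 counts in sedentary TME library 9, 10 in library 10 and 0 in libraries 4 and 6, and 12, 6, 11 and 0 counts in exercised TME libraries 7, 8, 9 and 10. The 57 TME counts stood beside 4 counts in the 15 cancer libraries, a ratio of 22.1 per library size with a 95% exact interval of 8.16 to 83.7 that covers counting error only and not the spread between libraries. Dlk1 held 0, 3, 35 and 2 counts in sedentary TME libraries 4, 6, 9 and 10 and 6, 3, 3 and 4 counts in exercised ones. Sedentary TME library 9 thus held 35 of the 56 TME counts of Dlk1. In cancer cells Dlk1 held 0 counts in the 8 sedentary libraries and 2 in the exercised ones.

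**Figure D1:**
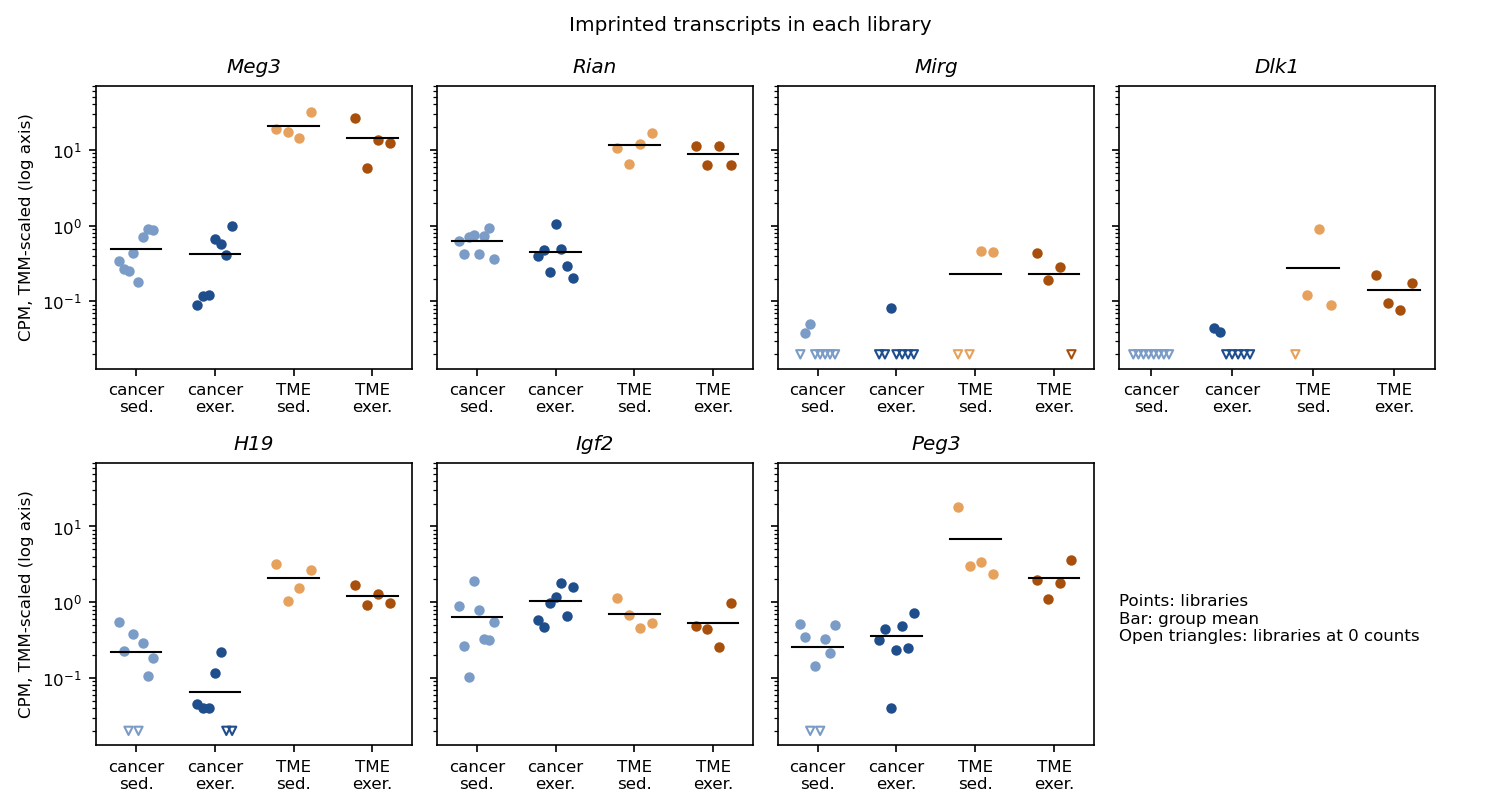
TMM-scaled CPM of each imprinted transcript on a log axis, with a point for each library, a bar for the group mean and open triangles for libraries at 0 counts. All 8 TME libraries lie above all 15 cancer libraries for Meg3, Rian, H19 and Peg3, while the Igf2 groups overlap.

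H19 stood at 3.18, 1.04, 1.54 and 2.64 CPM in sedentary TME libraries 4, 6, 9 and 10, and at 1.69, 0.916, 1.30 and 0.975 CPM in exercised TME libraries 7, 8, 9 and 10. The highest of the 15 cancer libraries had 0.551 CPM, so the sorts did not overlap, and 2 libraries of each cancer group had 0 counts. Cancer minus TME was -3.63 ± 0.45 log2 for H19. Igf2, its partner in the domain, did not follow it. Igf2 stood at 1.12, 0.682, 0.462 and 0.536 CPM in sedentary TME libraries 4, 6, 9 and 10, and at 0.478, 0.442, 0.259 and 0.975 CPM in exercised ones. Its lowest, median and highest values were 0.102, 0.441 and 1.91 CPM in sedentary and 0.477, 0.976 and 1.77 CPM in exercised cancer libraries. All 4 groups overlapped, and cancer minus TME was 0.44 ± 0.40 log2.

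Peg3 stood at 18.3 CPM in sedentary TME library 4, and at 3.01, 3.36 and 2.37 CPM in sedentary TME libraries 6, 9 and 10. Exercised TME libraries 7, 8, 9 and 10 had 1.99, 1.11, 1.79 and 3.59 CPM. Library 4 was thus far above the others, which overlapped between treatments, and the highest cancer library had 0.724 CPM. In library 4 the ratio of Peg3 to Meg3 counts was 0.956, against 0.0744 to 0.295 in the other TME libraries. The same library had the highest mitochondrial share (42.2%) and the highest sum of the 14 endothelial markers, at 1014 CPM against 300 to 502 CPM in the other TME libraries; the part of either in its Peg3 level was not tested. Cancer minus TME was -3.60 ± 0.43 log2 for Peg3 with all libraries.

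Of the 7 members, Meg3, Rian, H19 and Peg3 had every TME library above every cancer library, as did 5.19% of the 17503 genes that passed the filter on low counts. The members were chosen by this contrast, and nothing is read from that count. Of these genes, 52.6% were called in either direction at an adjusted p under 0.05 by edgeR's quasi-likelihood test. Mirg and Dlk1 did not pass the filter. The ratio of mean levels, TME over cancer, was 38.2 for Meg3, 18.7 for Rian, 14.7 for Peg3, 11.3 for H19 and 0.750 for Igf2. Without sedentary TME library 4 the Peg3 mean in TME cells was 2.46 ± 0.904 CPM (n = 7), the ratio was 8.15, and Peg3 stood below H19 in this order.

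On a per-length scale, CPM divided by the exon length in kilobases (RPKM) allows members to be compared with one another. In TME cells the mean levels were 0.973 RPKM for Meg3, 0.675 for H19, 0.559 for Rian, 0.334 for Peg3, 0.108 for Igf2, 0.0371 for Dlk1 and 0.0313 for Mirg, with lengths taken over all annotated exons. With the length of the longest transcript, Rian stood at 1.26 RPKM and Meg3 at 1.21 RPKM, so the order of these members rests on the length used. In cancer cells Igf2 had the highest level of the 7, at 0.144 RPKM, followed by H19 at 0.0597, Rian at 0.0299, Meg3 at 0.0255 and Peg3 at 0.0226 RPKM. By mean CPM the groups stood in the order sedentary TME, exercised TME, sedentary cancer and exercised cancer for Meg3, Rian and H19. Neighbours in that order overlapped except at the step from TME to cancer. For Igf2 the order was exercised cancer, sedentary TME, sedentary cancer and exercised TME, with overlap at each step.

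The residual level in the cancer sort can be read beside cell type markers measured in the same way. Meg3 stood in cancer libraries at 2.61% of its TME level, Rian at 5.35%, Peg3 at 6.79% (12.3% without sedentary TME library 4), H19 at 8.85% and Igf2 at 133%. The median marker gene stood at 3.68% for mast cells, 5.35% for macrophages, 6.07% for all leukocytes and 6.41% for endothelium. Of the 12 fibroblast markers, Pdgfra (411 CPM) and Dpt (179 CPM), a receptor and a matrix protein of fibroblasts, were as high in the cancer libraries as in TME libraries (337 and 176 CPM). The fibrillar collagen gene Col1a2 was at 9.17 CPM in cancer and 251 CPM in TME libraries. By edgeR's quasi-likelihood test at an adjusted p under 0.05, 10 of the 12 fibroblast markers were lower and 1 was higher in cancer cells (25.3% and 27.3% of all genes). The median fibroblast marker stood at 38.1% and the median pericyte and smooth muscle marker at 35.3%. The latter is over 8 of 12 genes, those of at least 1 CPM in TME libraries. The summed fibroblast list was higher in every TME library (1289 to 2816 CPM) than in any cancer library (866 to 1186 CPM). The cell type that carries Meg3 in the TME sort was not tested.

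**Figure D2:**
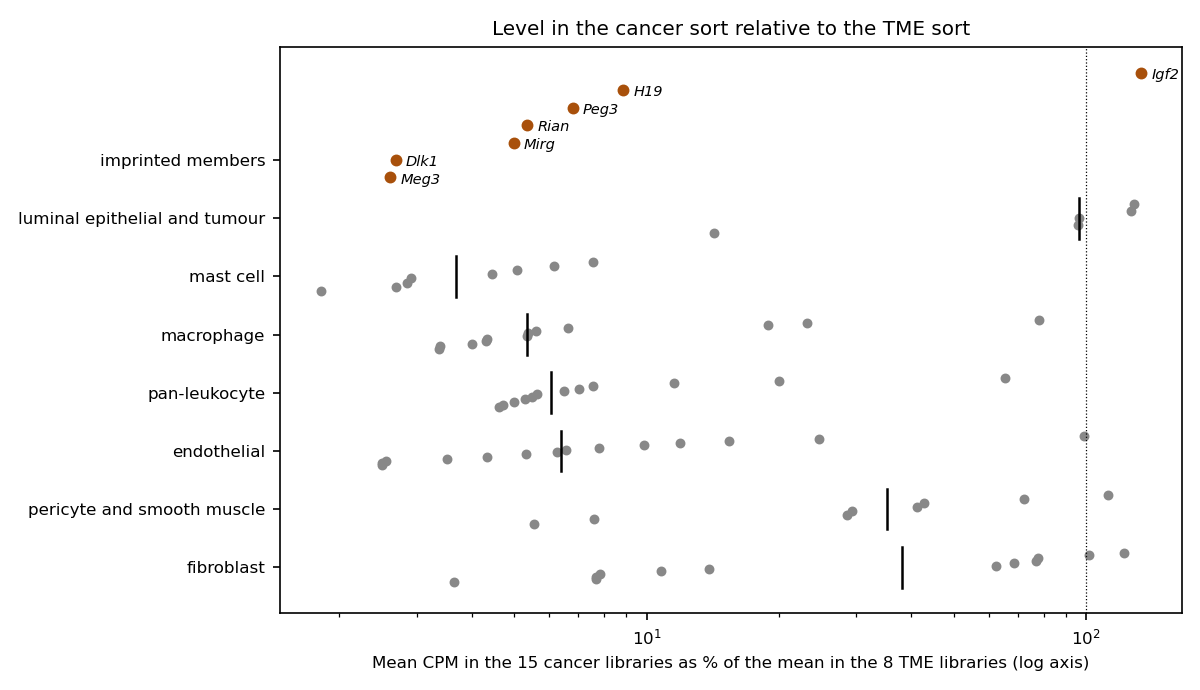
Mean CPM in the 15 cancer libraries as a percentage of the mean in the 8 TME libraries, on a log axis, for the 7 imprinted genes and for marker genes with a TME mean of at least 1 CPM (points) with the list medians (bars). Meg3 at 2.61% lies below every fibroblast, pericyte and smooth muscle, pan-leukocyte and macrophage marker plotted and within the range of mast cell and endothelial markers. Rian at 5.35% lies below every pericyte and smooth muscle marker and within the ranges of the fibroblast, pan-leukocyte, macrophage, mast cell and endothelial lists. Igf2 at 133% lies to the right of the dotted line at equal levels.

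The transcripts around the members were compared in the same contrast. Within 500 kb of Meg3, 104 symbols were annotated, 19 held any count, and Meg3 and Rian alone reached a mean of 1 CPM in either sort. Around H19, 13 of 43 symbols reached 1 CPM, and the 12 that are not members were all lower in cancer than in TME cells by the fitted difference, with a median of -0.50 log2, where 49.4% of all genes tested were below 0. They included Tspan32, a tetraspanin of blood cells, at -4.25 ± 0.30 log2, Lsp1, a leukocyte actin-binding protein, at -2.16 ± 0.16, and Mrpl23, a mitochondrial ribosomal protein gene 45.5 kb from H19, at -0.38 ± 0.22. H19 at -3.63 log2 thus lay far below Mrpl23, its nearest expressed neighbour outside the imprinted pair. Tspan32, Prr33 and Tnni2 reached 1 CPM in TME cells alone, which fixed their direction. The count of 12 therefore cannot be compared with the share of all genes, and nothing is read from it. Around Peg3, 7 of 46 symbols reached 1 CPM, and the other 6, all zinc finger genes, had a median of 0.09 log2. The highest was Zfp418 at 0.57 ± 0.21 log2 and the lowest was Zfp28 at -0.32 ± 0.15 log2, against -3.60 for Peg3.

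**Figure D3:**
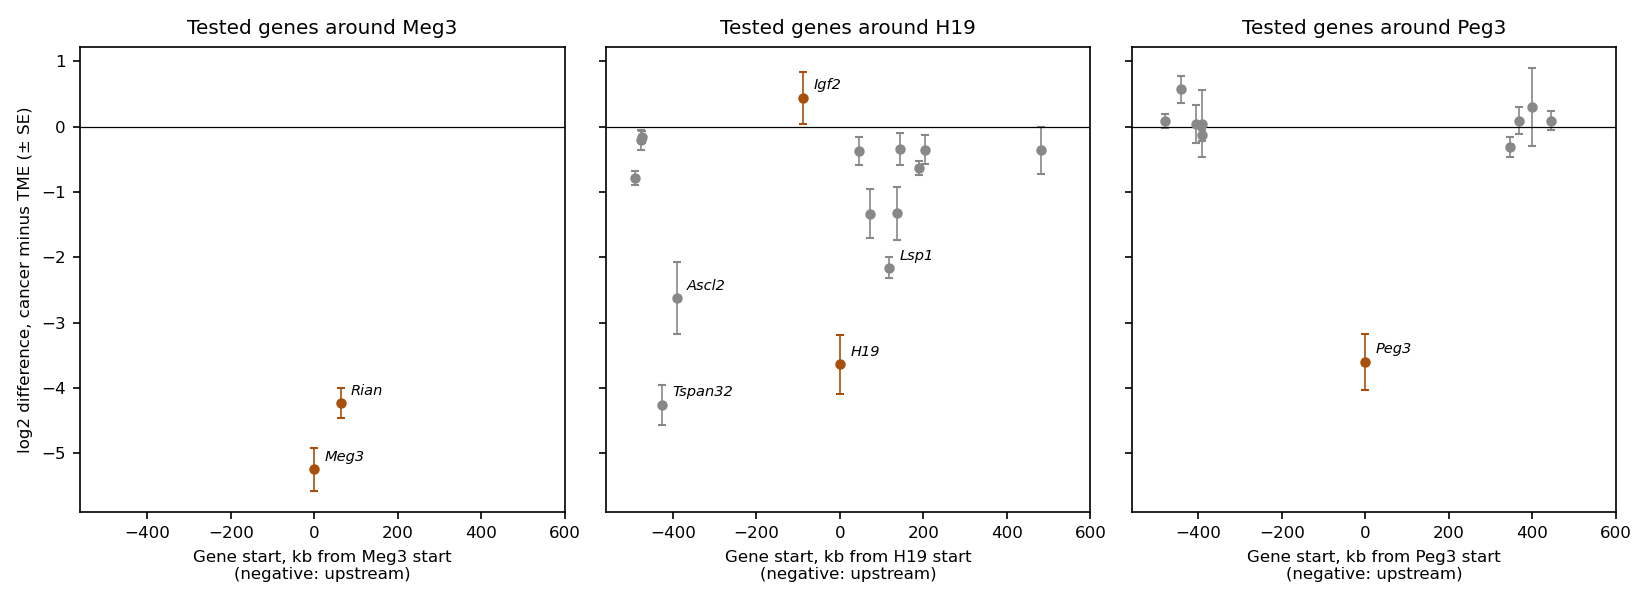
Fitted log2 difference between cancer and TME cells (± SE) for the tested genes around Meg3, H19 and Peg3, against the distance of each gene's start in kb, with members in brown. Peg3 at -3.60 lies apart from neighbours near 0, and H19 at -3.63 has neighbours at -0.38 and, farther away, at -4.25.

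Other imprinted genes, from a list of 46 symbols, were compared with the members. Of the 31 that passed the filter, 12 were lower and 8 higher in cancer cells by edgeR's quasi-likelihood test at an adjusted p under 0.05 (25.3% and 27.3% of all genes), and the median difference was -0.09 log2, against 0.01 over all genes tested. Under -3 log2 lay 6 of them, against 4.75% of all genes. They were Grb10, an adaptor that restrains insulin and growth factor receptors, at 14.8 ± 6.49 CPM in TME and 0.505 ± 0.248 CPM in cancer cells (-4.81 ± 0.28 log2), and 5 genes of low level. These were Dio3, the deiodinase at the far end of the Meg3 domain (-6.13 ± 0.73 log2), Ndn, a growth suppressor of the MAGE family (-5.54 ± 0.61), Kcnq1, a potassium channel (-4.44 ± 0.59), Sgce, a sarcoglycan (-4.32 ± 0.62) and Peg10, a retrotransposon-derived gene (-4.06 ± 0.65). Another 21 lay within 1 log2 unit of equality, among them Igf2r, the receptor that clears IGF2 (0.54 ± 0.08), and Sfmbt2, a polycomb protein (0.65 ± 0.07). Of 18 tested genes that maintain imprints or bind these loci, 10 were higher and 1 lower in cancer cells. The insulator protein gene Ctcf (0.60 ± 0.08 log2), Yy1 (0.70 ± 0.07) and Zfp445, which protects methylated imprints (0.87 ± 0.11), were higher in cancer cells. The 1 lower gene was Aff3 (-1.10 ± 0.39 log2), at a mean of 0.686 CPM in TME and 0.324 CPM in cancer cells.

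The insulin-like growth factor axis, in which IGF2 acts, had 10 of 18 tested members lower and 5 higher in cancer cells, where 25.3% of all genes were lower and 27.3% higher. Igfbp3, a binding protein of secreted IGFs, stood at 49.5 ± 60.0 CPM in TME and 1.31 ± 1.22 CPM in cancer cells (-5.23 ± 0.48 log2). Igf1, the other ligand, differed by -4.01 ± 0.47 log2 and Igfbp5 by -3.86 ± 0.39 log2, while Igf2bp2, an RNA-binding protein of Igf2 transcripts, was higher in cancer cells at 0.48 ± 0.07. Of the p53 axis, which Meg3 RNA is reported to act on, 5 of 10 genes were lower and 4 higher in cancer cells, and Trp53 itself differed by 0.02 ± 0.05 log2. Of 14 tested genes of the Notch axis, related to Dlk1, 5 were lower and 4 higher, a share called near the 52.6% of all genes, with the endothelial ligand Dll4 at -2.89 ± 0.28 log2.

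Exercise was compared with sedentary within the TME sort, a comparison that did not choose the members. None of the 5 members tested passed the threshold, as in the whole table, where 0 of 16273 genes (0.0%) passed and 1373 (8.44%) had an unadjusted p under 0.05 by edgeR's quasi-likelihood test. Meg3 differed by -0.52 ± 0.44 log2 (exercise minus sedentary, adjusted p = 0.725), from 20.7 ± 7.61 CPM to 14.5 ± 8.80 CPM (SD, n = 4 each). Rian differed by -0.39 ± 0.31 log2 (adjusted p = 0.698) and H19 by -0.78 ± 0.45 (adjusted p = 0.604). Igf2 differed by -0.36 ± 0.59 (adjusted p = 0.868) and Peg3 by -1.66 ± 0.70 (unadjusted p = 0.0416, adjusted p = 0.586). All 5 fitted values were below 0, as were 48.7% of all genes tested, with a median of -0.52 log2 for the members and 0.01 for all genes. Of the 4 exercised libraries, 3 lay below the sedentary mean for Meg3 and 4 for Rian, H19 and Peg3. The treatments still overlapped for each of these genes. Sedentary library 4 at 18.3 CPM raised the sedentary Peg3 mean, which was 6.77 CPM. Two-sided exact permutation tests on log2 CPM gave p = 0.257 for Meg3, 0.371 for Rian, 0.171 for H19, 0.371 for Igf2 and 0.143 for Peg3, where 0.0286 is the smallest that 4 against 4 libraries allow.

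Leukocyte and endothelial markers also differed among the same 8 libraries, mainly through a few of them. The summed pan-leukocyte markers were high in exercised libraries 8 and 9 alone, and the endothelial sum of 1014 CPM in sedentary library 4 stood apart from the other sedentary libraries, which overlapped the exercised ones. No marker of either list passed the threshold. All 12 pan-leukocyte markers had a fitted exercise effect above 0, with a median of 1.13 log2. All 14 endothelial markers had an effect below 0, with a median of -1.08 log2, and the fibroblast list had a median of -0.10. The pericyte and smooth muscle list had 10 of 12 markers below 0, a median of -0.58 log2 and none past the threshold. Its sum was 286 to 367 CPM in sedentary and 191 to 259 CPM in exercised TME libraries. The part of these lists in the values of Meg3, Rian, H19 and Peg3 was not tested. Without exercised TME libraries 8 and 9, those high in leukocyte RNA, the Meg3 difference was -0.08 ± 0.36 log2. That set was chosen after seeing the data and kept exercised libraries 7 and 10 alone. Meg3 was lowest in exercised library 8 at 5.72 CPM, while library 9 at 13.5 CPM lay near library 10 at 12.2 CPM. Without sedentary TME library 4 the Peg3 difference was -0.47 log2, so that library carried most of it. Mirg and Dlk1, which were not tested, had means of 0.227 and 0.229 CPM and of 0.277 and 0.143 CPM in sedentary and exercised TME cells.

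In cancer cells, 3 members passed the filter and none passed the threshold, as 0 of 15096 genes (0.0%) did, with 1901 (12.6%) at an unadjusted p under 0.05. Meg3 differed by -0.28 ± 0.50 log2 (adjusted p = 0.864), Rian by -0.49 ± 0.37 (adjusted p = 0.612) and Igf2 by 0.64 ± 0.46 (adjusted p = 0.600) by edgeR's quasi-likelihood test. Of the 7 exercised libraries, 6 lay below the sedentary mean for Rian and 5 above it for Igf2. H19 went from 0.218 ± 0.190 CPM in sedentary to 0.0661 ± 0.0787 CPM in exercised libraries, or from 40 counts to 11, and had a two-sided exact permutation p of 0.101. The exact permutation p was 0.0970 for Igf2, 0.103 for Rian, 0.345 for Peg3 and 0.465 for Meg3.

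The exercise effects in the sorts were set against each other by an interaction term. TME minus cancer was -0.25 ± 0.68 log2 for Meg3 (adjusted p = 0.954), 0.07 ± 0.44 for Rian (adjusted p = 0.983), 0.91 ± 0.90 for H19 (adjusted p = 0.853), -1.02 ± 0.79 for Igf2 (adjusted p = 0.803) and -2.04 ± 0.89 for Peg3 (unadjusted p = 0.0309, adjusted p = 0.621). Without sedentary TME library 4 the Peg3 value was -0.84 ± 0.80 (unadjusted p = 0.299, adjusted p = 0.913). None of the 5 passed, nor did any of 17503 genes (0.0%). At an unadjusted p under 0.05 there were 1316 genes (7.52%), Peg3 among them.

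**Figure D4:**
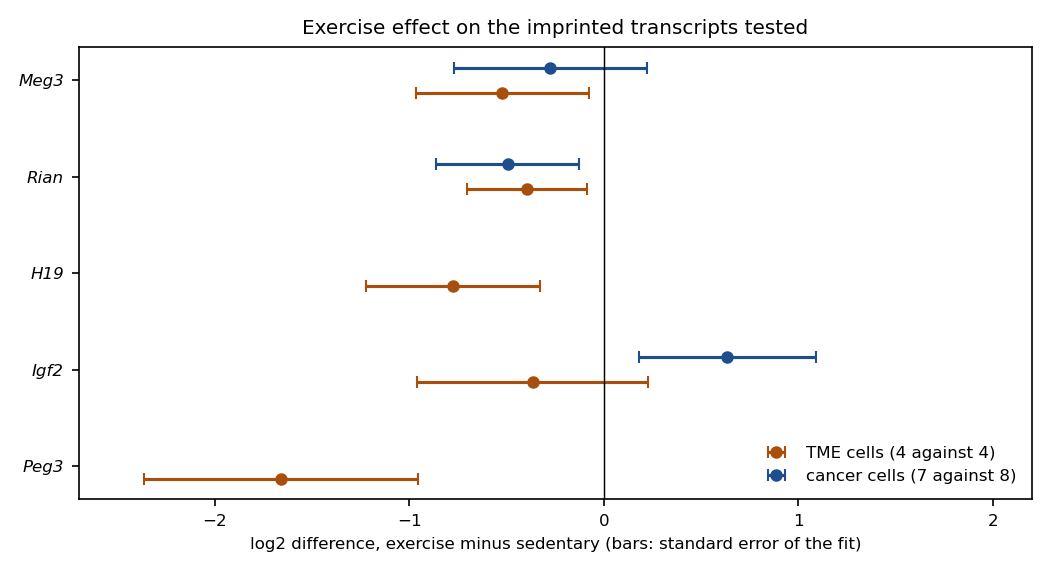
Exercise minus sedentary as fitted log2 difference (point) with its standard error (bar) for the members tested, in TME cells (4 against 4 libraries) and in cancer cells (7 against 8). The 5 TME values lie between -1.66 and -0.36, the standard errors of Meg3 and Rian overlap between the sorts, and Igf2 lies above 0 in cancer cells at 0.64.

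Among the related lists, no gene passed the threshold in either exercise effect. The smallest p values in TME cells were those of Igfbp2, an IGF-binding protein, at -1.98 ± 0.45 log2 (unadjusted p = 0.000984, adjusted p = 0.586) and Zfp445 at 0.49 ± 0.16 log2 (adjusted p = 0.586). Igfbp2 stood at 6.77 ± 2.44 CPM in sedentary and 1.72 ± 1.17 CPM in exercised TME cells, and its fitted difference in cancer cells was -0.94 ± 0.38 log2 (adjusted p = 0.320). In cancer cells the smallest p values were those of Ccng1, a p53 target, at 0.26 ± 0.07 log2 (adjusted p = 0.182) and Kcnq1ot1, an imprinted antisense RNA, at 0.32 ± 0.10 log2 (adjusted p = 0.210). Of 30 other imprinted genes tested in TME cells 15 were above and 15 below 0, with a median of -0.01 log2. Below 0, Grb10 differed by -0.63 ± 0.39 log2 (adjusted p = 0.631), and Mest, an imprinted hydrolase of mesoderm, by -1.24 ± 0.67 log2 (adjusted p = 0.599). Mest stood at 4.21 ± 4.57 CPM in sedentary TME cells, an SD above its mean. Above 0, Nnat differed by 0.81 ± 0.51 log2 (adjusted p = 0.630) and Cobl by 1.12 ± 1.06 log2 (adjusted p = 0.753), all by edgeR's quasi-likelihood test.

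Within the 8 TME libraries Meg3 was correlated with the other members and with marker levels in 12 relations, with two-sided exact permutation p values. Meg3 and Rian had Pearson's r of 0.72 (p = 0.0360, adjusted p = 0.130) and Spearman's rho of 0.74 (p = 0.0458, adjusted p = 0.138). Here r was 0.35 without exercised library 8 and sedentary library 10, the 2 farthest from the Meg3 median, and 0.58 to 0.83 with any single library left out. Leaving out the extremes of Meg3 narrows its range, so a lower r without them cannot show whether a relation rests on them. Meg3 and H19 had r of 0.71 (p = 0.0466, adjusted p = 0.130) and rho of 0.86 (p = 0.0107, adjusted p = 0.112), with r of 0.51 without the same libraries. Meg3 and the fibroblast level had r of 0.68 (p = 0.0535, adjusted p = 0.130) and rho of 0.67 (p = 0.0831), with r of 0.29 without them. With the pan-leukocyte level r was -0.75 (p = 0.0246, adjusted p = 0.130), rho -0.79 (p = 0.0279) and r without them -0.60. With the endothelial level r was 0.54 (p = 0.173, adjusted p = 0.297) and rho 0.81 (p = 0.0218, adjusted p = 0.112), with r of 0.50 without the same libraries. With the pericyte and smooth muscle level r was 0.60, with the macrophage level -0.71 and with the mitochondrial share 0.41. With Peg3, Igf2, Mirg and Dlk1, r was 0.32, 0.15, 0.21 and -0.04. No relation passed the adjustment. Centred on each treatment, r was 0.67 for Rian, 0.61 for H19, 0.72 for the fibroblast level and -0.69 for the pan-leukocyte level.

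**Figure D5:**
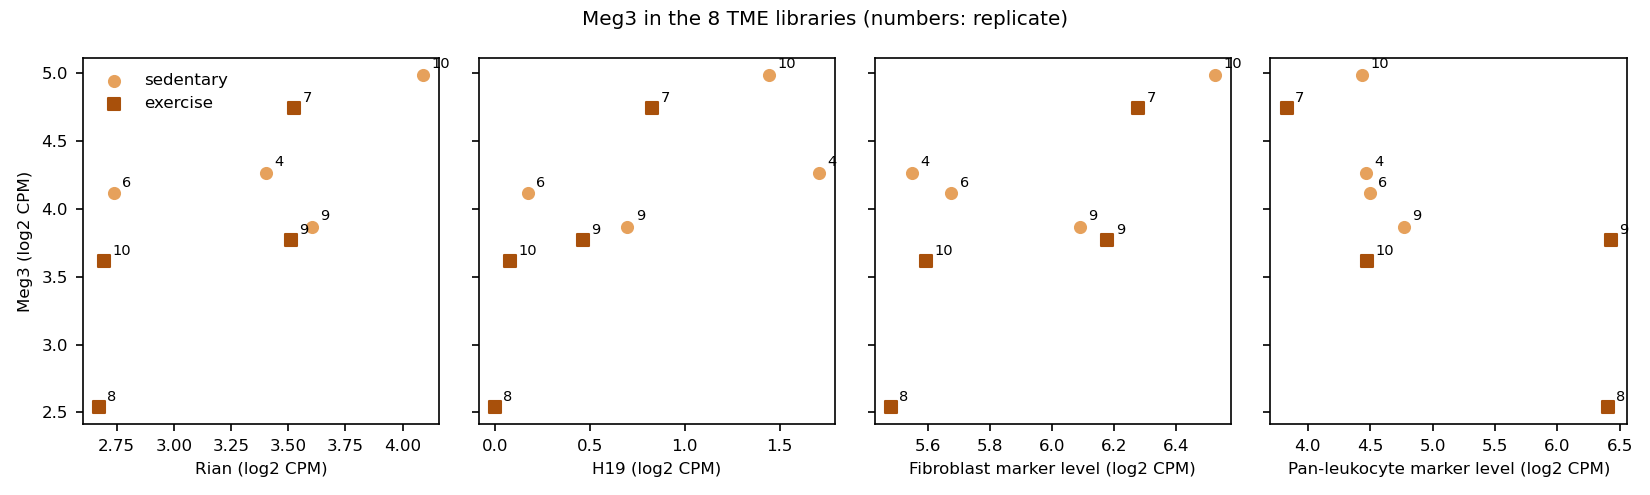
Meg3 log2 CPM in the 8 TME libraries against Rian, H19, the fibroblast marker level and the pan-leukocyte marker level, with circles for sedentary, squares for exercised and replicate numbers beside the points. Exercised library 8 is lowest for Meg3, Rian, H19 and the fibroblast level, and exercised libraries 8 and 9 lie apart on the leukocyte axis.

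In the 15 cancer libraries, where Meg3 had 2 to 19 counts per library, 10 such relations were computed. The highest was with the fibroblast level, at r of 0.62 (permutation p = 0.0132, adjusted p = 0.132) and rho of 0.63 (p = 0.0137, adjusted p = 0.137), with r of 0.51 without exercised libraries 1 and 2. With Rian r was 0.24 (permutation p = 0.389) and with the pan-leukocyte level -0.10 (p = 0.745). None passed the adjustment.

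Genes whose pattern over the 8 TME libraries was most like that of Meg3 were ranked by Pearson's r of log2 CPM among 10497 genes with a mean of at least 5 CPM. They were Bgn, a matrix proteoglycan, at 0.951, Adamts2, a procollagen-processing protease, at 0.941, Cpxm1, a secreted carboxypeptidase-like protein, at 0.939, Ccdc6 at 0.939 and Stk35 at 0.934, where the median absolute r of all these genes was 0.415. For Rian they were Mcu, the mitochondrial calcium uniporter, at 0.946, Timm8a1 at 0.935, Cthrc1, a secreted collagen-associated protein, at 0.925, Fstl1, a secreted glycoprotein, at 0.919 and Ilf2 at 0.911, with a median absolute r of 0.255. The libraries share depth and composition with all genes, and the highest of many values are high by selection. In the 15 cancer libraries r with Meg3 was 0.29 for Bgn, 0.57 for Adamts2, 0.25 for Cpxm1, 0.07 for Ccdc6 and 0.43 for Stk35.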

How the data were processed

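The authors deposited a table of raw read counts for 48397 gene symbols in 23 libraries, of which 16422 held no count. Per the labels' protocols, Trizol RNA went into polyA libraries of the KAPA Standard kit. The submitters' processing notes name STAR, featureCounts and mm10, with tool versions, annotation release and strand setting not given in the sources used here.

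These counts were fitted with edgeR 4.0.16 in R 4.3.3: filterByExpr, TMM scaling and the robust quasi-likelihood test, two-sided, with Benjamini-Hochberg adjustment over all genes tested and a threshold of 0.05. Exercise effects were fitted on the 8 TME and the 15 cancer libraries, and their difference and the contrast of sorts on all 23. Log2 CPM used a prior count of 2. Exact permutation tests used scipy 1.17.1, with 100000 resamples for correlations over 15 libraries. The fits were tested on simulated data.

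The members and gene lists were chosen with earlier results of these data known. Besides the members, named genes are, per list and direction, the 2 of smallest p in each exercise effect. Others are the 5 most like Meg3 or Rian and neighbours of at least 1 CPM. Of genes past the threshold in the contrast of sorts only some are named. Of these, Ctcf, Yy1 and Igfbp5 were picked by no stated rule. Pdgfra, Dpt, Col1a2 and Trp53 were named after their values were seen. The labels do not state separate animals, and p-values then reflect only how far libraries of a group spread. Alternatives were DESeq2 1.42.0, limma 3.58.1 voom, other scaling and filters, the replicate number as a block, and libraries left out. The set without exercised TME libraries 8 and 9 was added after seeing the data.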

Additional observations from a re-analysis of the deposited data

Results flagged for a closer look

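Of 27 group values checked for a library far from the others, 5 were found, and chance gives about 1 in 20. Peg3 was 18.3 CPM in sedentary TME library 4, with the next library at 3.36 CPM. Dlk1 was 0.898 CPM in sedentary TME library 9, with the next at 0.120 CPM. Igf2 was 1.91 CPM in sedentary cancer library 5, with the next at 0.890 CPM. Rian was 1.05 CPM in exercised cancer library 5, with the next at 0.487 CPM. Mirg was 0.0813 CPM in exercised cancer library 4, where it had 2 counts and the other 6 libraries of the group had 0.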

How the results depend on the processing

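No member passed the threshold for an exercise effect or for the difference of the effects under any alternative, and the lowest adjusted p was 0.160. Of 317 such values, 300 kept their direction and side of the threshold and 17 changed sign. Igf2 in TME cells became 0.021 log2 with the replicate block, 0.10 without sedentary TME libraries 4 and 6 and 0.089 without exercised TME libraries 8 and 9. In the difference of the effects, Rian became -0.095 with limma voom and -0.23 without sedentary TME libraries 4 and 6, Meg3 became 0.19 without exercised TME libraries 8 and 9, and H19 became -0.47 with the replicate block. Leaving out single libraries gave -0.68 to 0.066 for Meg3 and -0.10 to 0.44 for Rian there, and r with Meg3 of -0.23 to 0.057 for Dlk1, -0.029 to 0.29 for Igf2 and -0.083 to 0.46 for Peg3. In TME cells the Meg3 effect was -1.18 log2 with limma voom and -0.23 without sedentary library 10, and the Peg3 effect ran from -2.04 to -0.47. The cause was not tested.

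Counts over all genes moved more. Genes called for exercise in TME cells were 41 with DESeq2 and 6 without a filter, and in cancer cells 161 with DESeq2, 197 with limma voom, 28 without a filter, 1 with all 23 libraries in a single fit, and 0 to 43 with libraries left out, where 43 were called without sedentary cancer library 4, 6 without exercised library 10, 3 without exercised library 5 and 1 without sedentary library 3. For the difference they were 2 with DESeq2, 40 with limma voom, 14 with the replicate block and 0 to 52 with libraries left out, where 52 were called without exercised TME library 7. The deviations of libraries with the same number had correlations of 0.23 and 0.01 across treatments in TME cells and -0.066 to 0.093 in cancer cells. Across the sorts they were -0.060 to 0.050 in the 4 sedentary pairs and 0.14 to 0.24 in the 3 exercised pairs, of which 2 correlated best with their own number. As not every pair was above 0.1, the numbers were not taken as pairs. Without the filter, H19 differed by -1.67 and Peg3 by 0.41 log2 in cancer cells. With the longest transcript as the length, Rian was 1.26 RPKM in TME and 0.0673 RPKM in cancer cells. Depth limits Mirg and Dlk1, with 61 and 58 counts in all, and the members in cancer cells.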
